A study of Mus musculus with 10 samples.

Results

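The 41 genes described here are interferon-stimulated genes, a set named gene by gene: transcription factors of the STAT and IRF families, antiviral RNA sensors, antiviral effectors, ISG15 and ADP-ribose enzymes, interferon-inducible GTPases, antigen presentation genes and the chemokine Cxcl10. All 41 were found by symbol among the 46095 gene symbols of the count table, and 39 passed the filter on low counts among 15335 tested genes. Psmb8 and Psmb9 did not pass it. C3H10 T1/2 is a mouse embryo line with mesenchymal properties, which the labels place under the strain name C57BL/6. The RNA-seq groups were 3 static control libraries and 3 libraries from cells stretched in a 0.5 Hz sine wave to 10% elongation, 8 h a day on 3 days, both after 48 h on flexible plates coated with collagen. A second assay, ATAC-seq, which marks open chromatin by Tn5 insertion, covered 2 libraries of GFP control cells and 2 of cells in which Piezo1, a mechanically gated cation channel, had been knocked out with CRISPR/Cas9, without any label of strain. The labels do not say whether the knockout cells were 1 clone or whether replicates were separate cultures, so a p-value here reflects variation among libraries that may be purely technical.

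Interferons are secreted proteins, and those of type I are released by cells on sensing foreign nucleic acid. Type I interferons bind the receptor chains Ifnar1 and Ifnar2, whose kinases Jak1 and Tyk2 activate STAT proteins such as Stat2, and Stat2 joins Irf9 in the complex ISGF3, which binds the interferon-stimulated response element. Type II interferon acts through Ifngr1 and Ifngr2, and its response genes often carry the gamma-activated site. The genes so switched on block viral replication, raise the sensors that detect viral RNA and load peptides onto class I molecules. In fibroblasts and mesenchymal cells many of them are present at a low basal level without infection.

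The response element was taken as the letters GAAA, any 2 bases and again GAAA, on either strand, and the gamma-activated site as TTCNNNGAA, which reads the same on both strands. RefSeq promoters of GRCm38.p6, which run from 250 bases before a gene start to 50 bases from the start on, were at hand for 33 of the 41 genes, with 37 promoters in all. The sequences shown are those of called genes with and without the response element, of Isg15 as a gene with a tight row of matches, and of the stretch between the starts of Psmb9 and Tap1. All are printed 5′ to 3′ on the gene's strand, end at the base before the gene start, and carry the response element matches in capitals.
Stat2, chr10:128270248-128270497, plus strand: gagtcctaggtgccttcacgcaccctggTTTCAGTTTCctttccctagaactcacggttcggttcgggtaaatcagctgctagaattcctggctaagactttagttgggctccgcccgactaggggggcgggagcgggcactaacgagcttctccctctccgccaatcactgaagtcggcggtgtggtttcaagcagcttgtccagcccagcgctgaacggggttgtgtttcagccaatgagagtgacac
Gbp2, chr3:142620413-142620662, plus strand: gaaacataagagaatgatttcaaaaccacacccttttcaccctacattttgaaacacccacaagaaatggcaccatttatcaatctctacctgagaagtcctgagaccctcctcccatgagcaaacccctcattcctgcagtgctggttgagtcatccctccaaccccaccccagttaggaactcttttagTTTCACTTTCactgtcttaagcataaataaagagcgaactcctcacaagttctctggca
Gbp3, chr3:142559794-142560043, plus strand: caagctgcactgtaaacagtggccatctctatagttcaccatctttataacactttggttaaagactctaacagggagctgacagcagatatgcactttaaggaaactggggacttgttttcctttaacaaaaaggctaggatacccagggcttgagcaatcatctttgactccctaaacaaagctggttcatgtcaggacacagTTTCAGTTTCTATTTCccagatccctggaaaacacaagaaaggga
Irgm1, chr11:48871421-48871670, minus strand: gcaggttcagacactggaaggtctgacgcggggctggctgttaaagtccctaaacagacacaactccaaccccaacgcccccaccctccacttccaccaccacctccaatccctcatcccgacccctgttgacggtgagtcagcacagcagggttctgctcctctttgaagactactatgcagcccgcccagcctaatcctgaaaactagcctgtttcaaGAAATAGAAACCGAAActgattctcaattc
Isg15, chr4:156200819-156201068, minus strand: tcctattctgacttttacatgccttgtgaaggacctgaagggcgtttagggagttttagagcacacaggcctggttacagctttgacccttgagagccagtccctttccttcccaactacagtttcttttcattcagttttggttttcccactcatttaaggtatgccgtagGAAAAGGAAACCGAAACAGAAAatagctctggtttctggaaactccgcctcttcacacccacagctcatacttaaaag
Parp12, chr6:39118350-39118599, minus strand: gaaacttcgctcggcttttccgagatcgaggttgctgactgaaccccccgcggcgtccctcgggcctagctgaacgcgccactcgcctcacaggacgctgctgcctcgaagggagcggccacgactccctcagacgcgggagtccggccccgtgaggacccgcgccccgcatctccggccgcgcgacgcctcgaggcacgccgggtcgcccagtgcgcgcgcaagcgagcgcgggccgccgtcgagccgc
Tap1, chr17:34187331-34187555, plus strand: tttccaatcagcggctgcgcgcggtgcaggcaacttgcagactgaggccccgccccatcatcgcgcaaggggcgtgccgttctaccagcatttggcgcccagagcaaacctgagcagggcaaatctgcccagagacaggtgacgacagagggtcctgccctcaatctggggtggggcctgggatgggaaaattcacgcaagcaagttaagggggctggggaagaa

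Counting the base before the start as -1, the Gbp2 match lay at -59 to -50 on the opposite strand. Gbp3 held a pair of overlapping matches from -45 to -30 upstream of the earlier of its 2 listed starts. Irgm1 also held an overlapping pair, from -30 to -15, and Isg15 held 3 that overlapped from -78 to -57. The Stat2 match was farther out, at -222 to -213. Parp12 and the stretch between Psmb9 and Tap1 held neither motif, which says only that these letters are not in these windows.

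Over all 37 promoters, 17 (45.9%) held the response element, against 1131 of 32851 promoters in the table (3.44%). The gamma-activated site was found in 10 (27.0%), against 8.30% of all promoters, and both motifs in 5 (13.5%), against 0.454%. The GTPases stood at one end, with the response element in 5 of 5 genes whose promoter was at hand, namely Gbp2, Gbp3, Gbp7, Igtp and Irgm1. Among antiviral RNA sensors 4 of 6 genes held it (Ddx58, Ifih1, Eif2ak2 and Oas1a), among effectors 4 of 9 (Bst2, Ifit1, Ifit3 and Rsad2), and among STAT and IRF genes only Stat2 of 4. Among the 4 ISG15, ubiquitin and ADP-ribose genes at hand, only Isg15 held the response element and 0 held the gamma-activated site. Parp12, Dtx3l and Rnf213 held neither. Whether motif content goes with the fold changes was not tested. Of the 4 antigen presentation genes, B2m held the response element and Psmb8 a gamma-activated site. In Bst2 the gamma-activated site at -136 to -128 overlapped the first response element match. Parp9, Parp14, Usp18, Dhx58, Mx1, Mx2, Tap2 and Iigp1 had no entry in the promoter table.

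Under strain, 8 of the 39 tested genes were called higher and 0 lower at an adjusted p under 0.05 (edgeR's quasi-likelihood test with Benjamini-Hochberg adjustment over all tested genes). The 8, which are 20.5% of the 39, were Stat2, Dhx58, Parp12, Parp14, Dtx3l, Gbp2, Gbp3 and Irgm1, and over all tested genes 5.94% were called higher and 7.39% lower. Fold changes were above 0 for 38 of the 39, against 50.6% of all tested genes, and their median was 0.65 on the log2 scale against 0.0049 for all genes. At an unadjusted p under 0.05 there were 26 higher and 1 lower, the nucleotide-cleaving enzyme Samhd1. In either direction these were 27 of the 39, against 4544 of all 15335 tested genes. DESeq2 called 15 higher and limma-voom 11, each with 0 lower. The count of calls turned on single libraries. It was 1, 0 and 12 without strain libraries 1, 2 and 3, when 4.99%, 2.67% and 2.57% of all tested genes were called higher. Without static libraries 1, 2 and 3 it was 0, 29 and 2, beside 2.36%, 6.89% and 4.44% of all tested genes.

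The order of the libraries was shared by most of the genes. Against each gene's static mean, the median over the 39 genes on the log2(CPM + 0.5) scale was -0.074, 0.47 and -0.29 in static libraries 1, 2 and 3 and 0.84, 0.72 and 0.25 in strain libraries 1, 2 and 3. CPM is a count relative to the library total after TMM scaling. Static library 2 therefore stood above strain library 3, and the median within a group spread with a pooled SD of 0.354. Static library 2 was the highest static library for 35 of the 39 genes (89.7%, against 35.1% of all tested genes), and strain library 3 the lowest strain library for 34 (87.2%, against 29.0%). Strain library 3 lay below static library 2 in 29 of the 39 (74.4%, against 50.4%). Strain libraries 1 and 2 both exceeded every static library in 32 (82.1%, against 21.7%).

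**Figure D1:**
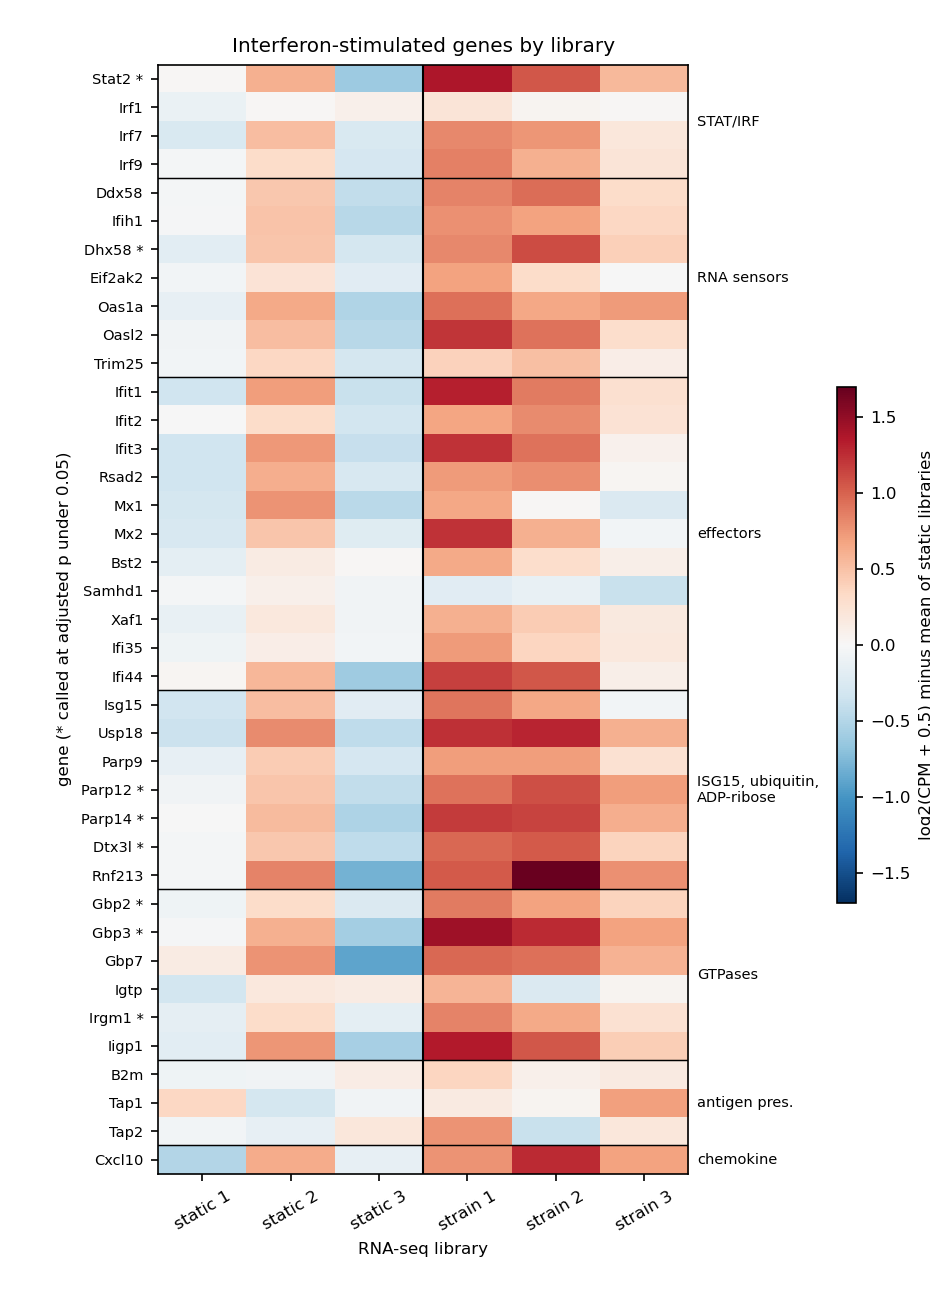
Heat map of the 39 tested interferon-stimulated genes (rows, grouped by role) in the 6 RNA-seq libraries (columns), coloured by log2(CPM + 0.5) minus the gene's mean over the static libraries, with stars for the 8 called genes. Static library 2 is red in most rows and strain library 3 pale, with medians of 0.47 and 0.25 over the 39 genes.

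Complete separation of the groups was no more frequent than elsewhere in the table. In 7 of the 39 (17.9%) all strain libraries lay above all static libraries, against 17.4% of tested genes. The 7 were Oas1a, Ifi35, Parp12, Parp14, Gbp2, Gbp3 and Cxcl10. Only Samhd1 had all strain libraries below all static ones, an arrangement found in 17.9% of tested genes. Strain library 1 was the highest of the 6 libraries for 25 genes (64.1%, against 19.2% of all tested genes), strain library 2 for 11, static library 2 for 2 and strain library 3 for 1. Without strain library 1 the median log2 fold change was 0.48, and 35 of 39 fold changes were above 0. Without static library 2 it was 0.89, and the range over all 6 such omissions was 0.48 to 0.89.

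Among the transcription factors, Stat2, the subunit of ISGF3 that Irf9 binds, was called. It was at 69.5, 105 and 44.8 CPM in static libraries 1, 2 and 3 and at 180, 144 and 101 CPM in strain libraries 1, 2 and 3. Strain library 3 was just under static library 2, so the groups overlapped at that point alone. The log2 fold change was 0.95 ± 0.28 (SE; adjusted p = 0.0463, edgeR), and this call was lost with DESeq2 (adjusted p = 0.0897).

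Irf1, a factor that both interferon types induce, hardly differed between groups. It was at 82.5, 89.9 and 94.8 CPM in the static libraries and at 103, 91.7 and 89.8 CPM in the strain libraries, with a log2 fold change of 0.09 ± 0.10 (SE; adjusted p = 0.582). Its range of 82.5 to 103 CPM was narrow, and static library 2, high for most of the set, was in the middle. Irf7, which amplifies type I interferon output, had a log2 fold change of 0.57 (adjusted p = 0.123), and Irf9, the DNA-binding subunit of ISGF3, of 0.57 (adjusted p = 0.0622). In both of these static library 2 was above strain library 3.

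For the 7 antiviral RNA sensors all 7 fold changes were above 0 with a median of 0.69. Only 1 was called (14.3%, against 5.94% of all tested genes called higher), and 0 without static library 1 or 3 or strain library 1 or 2. Dhx58 encodes LGP2, a helicase that tunes signalling by its relatives Ddx58 (RIG-I) and Ifih1 (MDA5). It was at 24.1, 37.8 and 22.1 CPM in the static libraries and at 48.5, 59.5 and 36.1 CPM in the strain libraries. The groups overlapped only in that strain library 3 was slightly below static library 2. The log2 fold change was 0.78 ± 0.22 (SE; adjusted p = 0.0425).

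Ddx58, the sensor of RNA with a free 5′ triphosphate, was at 77.8, 109 and 59.2 CPM in the static libraries and at 144, 155 and 98.7 CPM in the strain libraries. Its log2 fold change of 0.69 ± 0.22 (SE) missed the threshold (adjusted p = 0.0618). Trim25, a ubiquitin ligase that acts on RIG-I, was at 67.6, 89.0 and 56.8 CPM against 91.6, 99.4 and 75.6 CPM, with a log2 fold change of 0.32 (adjusted p = 0.217). Both genes showed the same order, static library 2 high and strain library 3 low. Oas1a, which makes the 2′-5′ oligoadenylates that activate RNase L, was at 3.76, 6.88 and 2.82 CPM in the static libraries and at 8.48, 6.90 and 7.25 CPM in the strain libraries. The lowest strain value was barely above the highest static value, so the groups did not overlap, and the log2 fold change of 0.75 had an adjusted p of 0.103. Oasl2, a related protein, had 0.81 (adjusted p = 0.0649), the helicase Ifih1 0.58 (adjusted p = 0.104) and the kinase Eif2ak2 (PKR), which halts translation, 0.35 (adjusted p = 0.205).

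Of the 11 antiviral effectors, 0 were called by edgeR's test, with 7 higher and 1 lower at an unadjusted p under 0.05. Such an unadjusted p was found in 4544 of all 15335 tested genes, in either direction. DESeq2 called 3 of the 11 effectors higher and limma-voom 0, and their median log2 fold change was 0.50. Bst2 (tetherin), which holds budding virions at the cell surface, was at 157, 194 and 178 CPM in the static libraries and at 276, 217 and 189 CPM in the strain libraries. Strain library 1 stood well above the other strain libraries, and strain library 3 fell inside the static range. Its log2 fold change was 0.36 ± 0.14 (SE; adjusted p = 0.119).

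Ifit3, one of the tetratricopeptide proteins that bind viral RNA complexes, was at 108, 227 and 104 CPM in the static libraries and at 321, 259 and 143 CPM in the strain libraries. The spread within each group was about as wide as the difference between them, and static library 2 exceeded strain library 3 by a wide margin (log2 fold change 0.72 ± 0.33 SE, adjusted p = 0.169). Its neighbours Ifit1 and Ifit2 had 0.80 (adjusted p = 0.115) and 0.57 (adjusted p = 0.0586). Ifi35 was at 42.9, 49.0 and 43.9 CPM against 74.9, 58.6 and 51.4 CPM, with no overlap between groups and a log2 fold change of 0.45 (adjusted p = 0.0598).

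Samhd1, which degrades deoxynucleotides and restricts reverse transcription, went the other way. It was at 126, 137 and 124 CPM in the static libraries and at 112, 118 and 99.3 CPM in the strain libraries, with no overlap. The log2 fold change was -0.23 ± 0.10 (SE; adjusted p = 0.162), so it was not called. Rsad2 (viperin), Mx2, Xaf1 and Ifi44 had log2 fold changes of 0.50, 0.67, 0.41 and 0.80, with adjusted p from 0.0662 to 0.252. Mx1 had 0.11 ± 0.41 (SE; adjusted p = 0.881) and took either sign when single libraries were left out, from -0.26 to 0.72. Both Mx1 and Mx2 are listed as transcribed pseudogenes in the RefSeq gene table of this assembly.

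The ISG15, ubiquitin and ADP-ribose enzymes had the highest median among the role groups of more than 1 gene, 0.88. Of the 7, 3 were called (42.9%, against 5.94% of all tested genes called higher). Without static libraries 1 and 3 and strain libraries 1 and 2 in turn, the calls were 0, 2, 1 and 0. Differences between role groups were not tested. Parp12, a mono-ADP-ribosyltransferase with antiviral activity, was at 44.5, 64.6 and 34.7 CPM in the static libraries and at 88.3, 99.4 and 76.3 CPM in the strain libraries. Even the lowest strain library was above the highest static one. The log2 fold change was 0.88 ± 0.20 (SE; adjusted p = 0.0169). Without strain library 1 it was 0.87 (adjusted p = 0.0485), which made Parp12 the 1 called gene in that fit. The call was lost without static library 1 (adjusted p = 0.0652) or strain library 2 (adjusted p = 0.0563).

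Parp14, a larger member of the same enzyme family, was at 29.8, 43.8 and 20.7 CPM in the static libraries and at 69.2, 67.4 and 46.3 CPM in the strain libraries, again without overlap (log2 fold change 0.96 ± 0.24 SE, adjusted p = 0.0278). Dtx3l, a ubiquitin ligase that pairs with Parp9, was at 36.9, 52.3 and 27.9 CPM against 74.9, 78.6 and 49.3 CPM. Its groups overlapped, since strain library 3 was under static library 2, and the log2 fold change was 0.79 ± 0.23 (SE; adjusted p = 0.0445). Parp9 itself had 0.55 (adjusted p = 0.0807). Dtx3l and Parp9 overlap on chromosome 16 (chr16:35926515-35939027 and chr16:35938470-35972621), and the strand setting of the counting is not given in the sources used here, so reads from the shared stretch cannot be told apart. The same holds for Stat2 and Apof, Ifit1 and Ifit1bl1, B2m and Patl2, Cxcl10 and Art3, and Eif2ak2 and Gm26637, which also overlap. Parp14 lies near Dtx3l, at chr16:35831892-35871518, and Parp12 on another chromosome, at chr6:39086412-39118349.

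Rnf213, a giant ubiquitin ligase, was at 222, 409 and 131 CPM in the static libraries and at 473, 730 and 392 CPM in the strain libraries. The static libraries alone spanned a wide range, and the log2 fold change of 1.06 ± 0.35 (SE) did not pass the threshold (adjusted p = 0.0692). Usp18, which strips ISG15 from proteins and blocks the type I receptor, was similar, at 0.97 ± 0.31 (SE; adjusted p = 0.0623). Isg15, the ubiquitin-like modifier, was at 30.1, 54.2 and 32.8 CPM against 71.5, 59.5 and 36.3 CPM. Strain library 3 was close to the lower static libraries here, and the log2 fold change was 0.52 ± 0.26 (SE; adjusted p = 0.211).

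Guanylate-binding proteins and immunity-related GTPases attack membranes around intracellular pathogens. Of the 6, 3 were called (50%, against 5.94% of all tested genes called higher). Their number of calls was 0 without static library 1, static library 3, strain library 1 or strain library 2. Gbp3 had the largest log2 fold change of the 39 tested genes, 1.10 ± 0.27 (SE; adjusted p = 0.0266). It was at 21.7, 33.96 and 14.6 CPM in the static libraries and at 60.7, 54.0 and 35.9 CPM in the strain libraries. The groups did not overlap, though strain library 3 and static library 2 were close. Gbp2 was at 51.4, 67.4 and 45.6 CPM against 99.96, 87.0 and 70.5 CPM, with no overlap (log2 fold change 0.65 ± 0.16 SE, adjusted p = 0.0289).

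Irgm1, which keeps other GTPases of its family off the cell's own membranes, was at 59.9, 82.5 and 59.5 CPM in the static libraries and at 120, 104 and 79.4 CPM in the strain libraries. Static library 2 was a little above strain library 3, and the log2 fold change was 0.59 ± 0.17 (SE; adjusted p = 0.0458). Gbp7 and Iigp1 had 0.71 (adjusted p = 0.171) and 0.89 (adjusted p = 0.0856). Igtp was near the limit of counting, with 6, 15 and 14 counts in the static libraries and 30, 7 and 14 in the strain libraries, so its value of 0.37 ± 0.58 (SE) gives no direction. Gbp7, Gbp3 and Gbp2 lie side by side at chr3:142530336-142550151, chr3:142560016-142573213 and chr3:142620663-142638008, and guanylate-binding genes are alike in sequence, so reads may have been split among copies in a way not given in the sources used here.

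**Figure D2:**
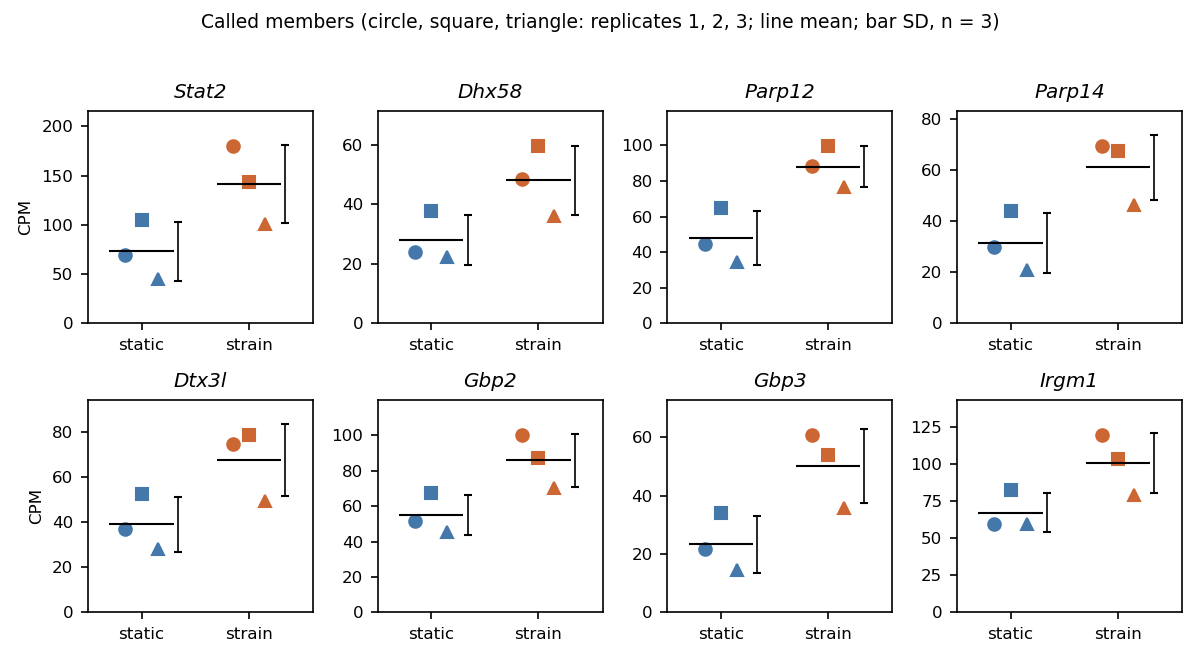
CPM of the 8 called genes in each RNA-seq library (blue static, orange strain; circle, square and triangle for replicates 1, 2 and 3), with the group mean as a line and the SD as a bar (n = 3). In Parp12, Parp14, Gbp2 and Gbp3 every strain point is above every static point, and in the other 4 the triangle of strain library 3 is below the square of static library 2.

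Cxcl10, the chemokine that draws activated T cells, was the sole chemokine of the set. It was at 9.22, 20.7 and 12.0 CPM in the static libraries and at 22.8, 32.6 and 21.6 CPM in the strain libraries, with strain library 3 only just above static library 2. The log2 fold change was 0.88 ± 0.27 (SE; adjusted p = 0.0535), short of the threshold in edgeR's test, while DESeq2 gave an adjusted p of 0.00762 and limma-voom 0.0374.

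Of the 5 antigen presentation genes 3 were tested, all with fold changes above 0 and a median of 0.39, and their difference from the other roles was not tested. Of these 3, 0 were called and 0 had an unadjusted p under 0.05 in edgeR's test, with 0 called by DESeq2 or limma-voom. Over all tested genes edgeR's test called 5.94% higher and 7.39% lower. B2m, the constant light chain of class I molecules, was at 884, 895 and 1019 CPM in the static libraries and at 1204, 988 and 1034 CPM in the strain libraries. Strain library 1 was high and strain library 2 fell below static library 3 (log2 fold change 0.21 ± 0.11 SE, adjusted p = 0.251). In none of the 3, of which Tap1 and Tap2 had few counts, was static library 2 the highest static library, while it was in 35 of the 36 tested genes of the other roles. Nor did strain libraries 1 and 2 both exceed the static libraries in any of the 3, while they did in 32 of those 36. Over all tested genes these shares were 35.1% and 21.7%, and 3 genes are too few to set this role apart.

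Among the genes of the peptide supply, Tap1, Tap2, Psmb8 and Psmb9 had few counts in both groups. Tap1 and Tap2, the partners that form the peptide pump of the endoplasmic reticulum, had 21, 6 and 10 and 33, 28 and 39 counts in the static libraries. In the strain libraries Tap1 had 17, 13 and 34 counts and Tap2 79, 22 and 46. Psmb8 and Psmb9, catalytic subunits of the immunoproteasome, summed to 14 and 12 counts over the static libraries and to 20 and 8 over the strain libraries. No difference was detectable at such counts. The 4 genes lie together on chromosome 17, from Psmb9 (chr17:34182030-34187330) through Tap1 and Psmb8 to Tap2 (chr17:34204479-34216321).

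Other class I genes showed no common direction. Of 13 tested, 3 were called higher (23.1%, against 5.94% of all tested genes) and 0 lower. The list's median was -0.04 on the log2 scale. Erap1, which trims peptides, had 1.03 ± 0.16 (SE; adjusted p = 0.00275), at 16.2, 17.98 and 12.1 CPM in the static libraries and 35.5, 32.0 and 26.8 CPM in the strain libraries. The peptide editor Tapbpl had 0.74 ± 0.13 (SE; adjusted p = 0.00518), and for neither gene was the call lost by leaving out any 1 library. Psmb10, the other immunoproteasome subunit, had 0.37 (adjusted p = 0.0436), a call lost on leaving out any of 5 libraries. The heavy chain H2-K1 was at 3.11, 3.12 and 3.19 CPM against 2.11, 1.604 and 2.74 CPM (log2 fold change -0.54, adjusted p = 0.162), and H2-D1 had 0 counts in the static libraries and 1 in the strain libraries. Not all heavy chain genes were low. H2-T23 was at 270, 295 and 327 CPM against 294, 286 and 262 CPM (log2 fold change -0.08, adjusted p = 0.641). H2-Q4 was at 15.9, 16.2 and 15.5 CPM against 19.9, 14.0 and 13.4 CPM, while H2-M3 and H2-Q7 had at most 18 counts in any library. Heavy chain genes are alike and differ between mouse strains, and how reads shared between them were assigned is not given in the sources used here. C3H10 T1/2 is usually described as a C3H line, while the labels name C57BL/6, the strain of the mm10 reference. Reads of other alleles may fail to align to that reference, so the low counts of H2-K1 and H2-D1 need not mean low expression, which was not tested.

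**Figure D3:**
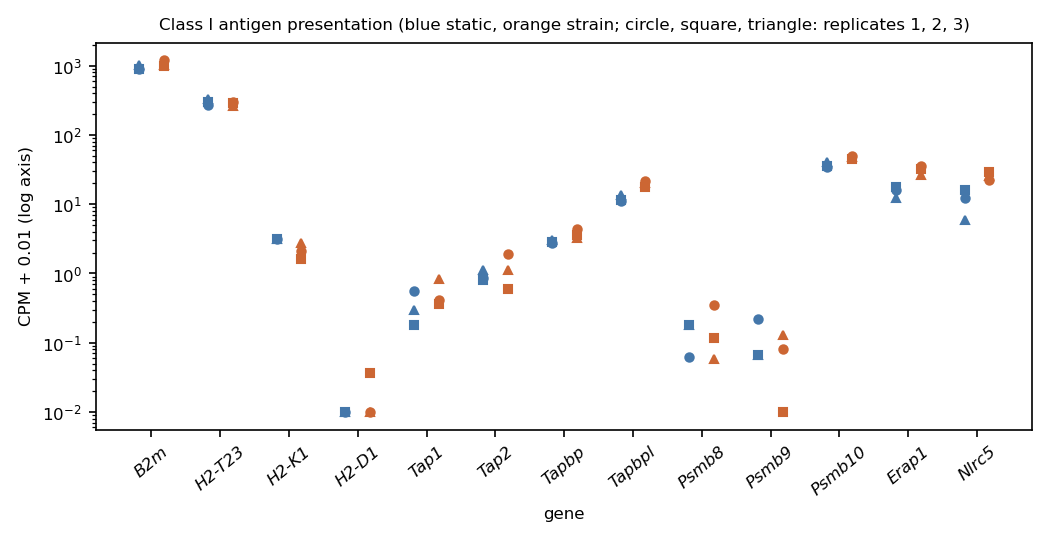
CPM + 0.01 on a log axis of 13 genes of class I antigen presentation in each library (blue static, orange strain; circle, square and triangle for replicates 1, 2 and 3), to be read within a gene since lengths were not taken into account. Erap1, Tapbp, Tapbpl, Psmb10 and Nlrc5 have all strain points above all static points, as do 17.4% of all tested genes. H2-K1 has all strain points below all static points, as do 17.9% of all tested genes, while Tap1, Tap2, Psmb8 and Psmb9 mix.

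The inputs of the pathway were read from lists of other genes. Interferon ligands were close to absent: of 21 genes 0 passed the filter and 16 had 0 counts in every library. Ifnb1, the interferon that fibroblasts make, had 0, 0 and 1 counts in the static libraries and 1, 5 and 1 in the strain libraries, too few to compare. Of 8 tested receptor and kinase genes 0 were called, and DESeq2 called 3 higher and 1 lower. At an unadjusted p under 0.05 in edgeR's test there were 3 higher and 1 lower. Over all 15335 tested genes 4544 had such an unadjusted p, in either direction. Jak1 was at 178, 181 and 141 CPM against 209, 226 and 207 CPM (log2 fold change 0.36, adjusted p = 0.0641). Ifngr1 was at 63.5, 58.4 and 61.3 CPM against 50.4, 49.5 and 51.5 CPM (log2 fold change -0.27, adjusted p = 0.0781). Neither gene's groups overlapped, and in neither did static library 2 stand out. Ifnar1, Ifnar2, Ifngr2 and Tyk2 had log2 fold changes of 0.15, 0.20, -0.15 and 0.03.

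Nlrc5, the transactivator of class I genes, was called at 1.17 ± 0.28 (SE; adjusted p = 0.0216), at 12.1, 16.1 and 5.95 CPM against 22.4, 29.3 and 25.5 CPM. That call was lost without static library 1, strain library 2 or strain library 3. Socs1, a feedback inhibitor of Jak kinases, had -0.11 (adjusted p = 0.626). Of 9 tested feedback inhibitors, Trim21 (0.64, adjusted p = 0.0360) and Adar (0.60, adjusted p = 0.0373) were called higher. That is 22.2% of the list, against 5.94% of all tested genes. The Trim21 call was lost on leaving out any of 4 libraries and the Adar call on leaving out any of 5, so the count of 2 fell to 0 without static library 1, static library 3, strain library 1 or strain library 2, and to 1 without strain library 3.

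Among 14 tested adaptors and kinases of nucleic acid sensing, 5 were called higher (35.7%, against 5.94% of all tested genes) and 0 lower. Mb21d1 encodes cGAS, the sensor of DNA in the cytosol. It was at 2.56, 2.75 and 2.25 CPM in the static libraries and at 6.41, 4.70 and 5.02 CPM in the strain libraries, with the groups far apart. Its log2 fold change was 1.09 ± 0.20 (SE; adjusted p = 0.00569), and the call held without any 1 library, unlike those of the 8 genes above. Tmem173 (STING), the adaptor that cGAS activates, had 0.60 (adjusted p = 0.0322), its kinase Tbk1 0.38 (adjusted p = 0.0456), the receptor Tlr3 0.69 (adjusted p = 0.0315) and the nucleic acid sensor Zbp1 0.78 (adjusted p = 0.0443). Each of these 4 calls was lost without at least 4 of the libraries in turn.

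A further 50 tested interferon-stimulated genes outside the 41 gave 9 calls higher and 2 lower, and their log2 fold changes had a median of 0.45. The calls were 18% higher and 4% lower, against 5.94% and 7.39% of all tested genes. Oas3, of the oligoadenylate synthetase family, had 2.02 ± 0.34 (SE; adjusted p = 0.00389), at 0.366, 0.534 and 0.398 CPM against 1.71, 2.22 and 1.38 CPM. Lgals3bp had 0.67 (adjusted p = 0.00476). Gbp8 (-0.997, adjusted p = 0.0127) and the exonuclease Isg20 (-0.68, adjusted p = 0.00734) were called lower, so called genes of this wider list did not all go the same way. The calls of Oas3, Lgals3bp and Isg20 held without any 1 library, and that of Gbp8 was lost without strain library 3. The other 7 higher calls (Gbp5, Ifitm3, Herc6, Slfn2, Helz2, Ifi27l2a and Shisa5) were each lost on leaving out any of 2 to 5 libraries. The count of 9 became 2, 23 and 5 without static libraries 1, 2 and 3 and 6, 3 and 5 without strain libraries 1, 2 and 3. Targets of NF-kB, the other arm of nucleic acid sensing, gave 7 calls higher and 1 lower of 19. The 7 were 36.8% of that list, against 5.94% of all tested genes called higher, and each of the 7 calls held without any 1 library. The lower call, Tnfaip3, was lost without static library 1 or strain library 3. Static library 2 was the highest static library for 31.6% of that list, against 89.7% of the 39. This order was not particular to the 39. It was found in 80% of the further 50 interferon-stimulated genes and 78.6% of the 14 sensing adaptors and kinases, against 35.1% of all tested genes. Strain library 3 was the lowest strain library for 78% of the 50 and 42.9% of the 14, against 29% of all tested genes.

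**Figure D4:**
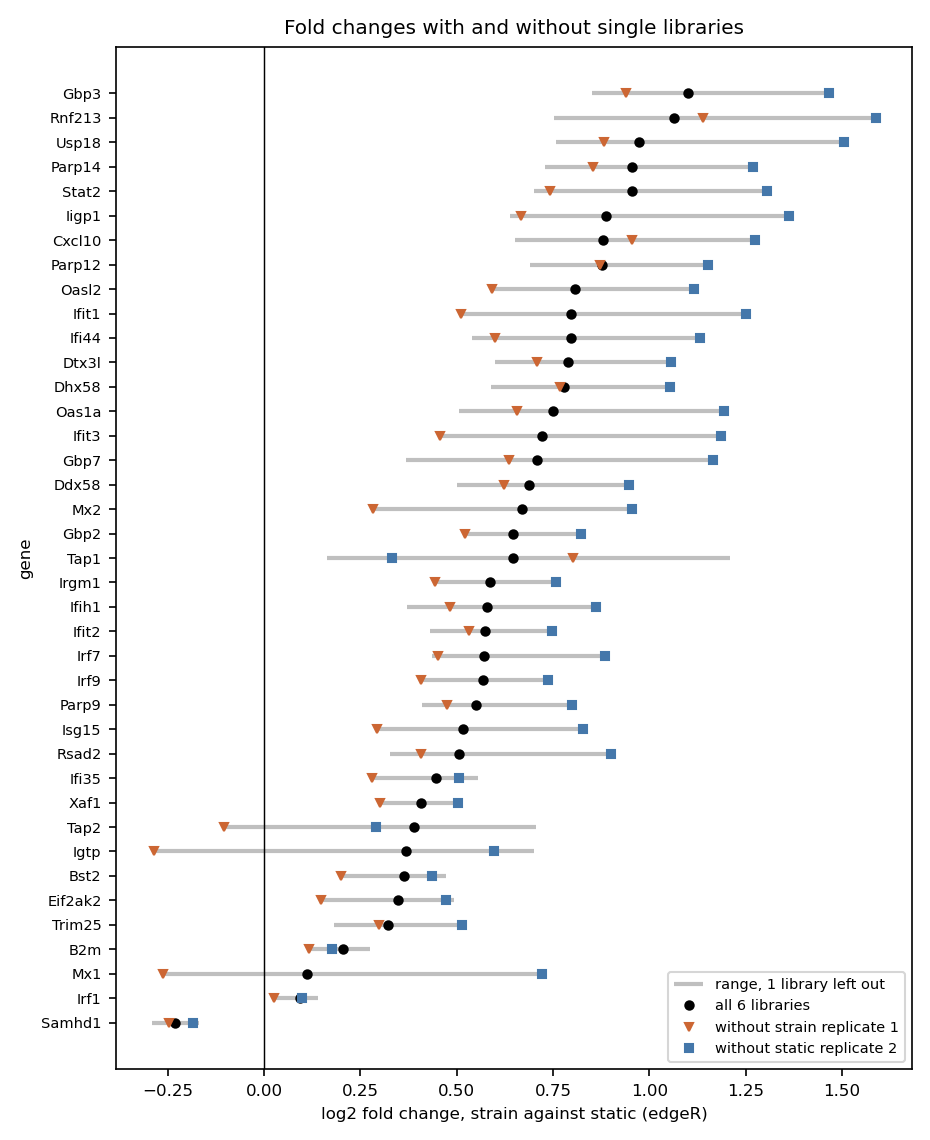
Log2 fold change of the 39 tested genes, strain against static, with all 6 libraries (black), without strain replicate 1 (orange), without static replicate 2 (blue) and the range over all single omissions (grey). Omitting static replicate 2 moves the median to 0.89 and omitting strain replicate 1 to 0.48, and Mx1, Igtp and Tap2 cross 0.

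Library totals lay between 36150738 and 41024689 counts, and no replicate pair agreed within counting noise. Mesenchymal markers were abundant (summed 59322 to 88684 CPM), with Thy1 at 2 counts or fewer. Of 11 tested, 6 were called lower under strain (54.5%, against 7.39% of all tested genes). Macrophage markers summed to 18.6 to 23.4 CPM in the static and 32.5 to 33.8 CPM in the strain libraries, of which Cd14 was called higher, while the leukocyte genes Ptprc and Tyrobp had 0 counts in every library. Lymphoid markers summed to at most 0.216 CPM, endothelial markers to 3.07 to 6.37 CPM, and epithelial markers to 8.45 to 9.75 CPM static and 3.00 to 4.53 CPM under strain. Heat shock genes were highest in strain library 1 for 9 of 13 tested, as were 25 of the 39 interferon-stimulated genes. The order of the other libraries differed. For heat shock genes static library 3 was the highest static library in 11 of 13 and strain library 2 the lowest strain library in 9. For the 39 these were static library 2 in 35 and strain library 3 in 34. The part of heat shock genes in the result was not tested. In bulk RNA, more of these transcripts in every cell and a larger number of responding cells cannot be told apart.

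In the ATAC-seq lists, peaks within 1000 bases of a gene start were counted for the 33 genes with a start in the promoter table. GFP control libraries 1 and 2 had a peak at 15 (45.5%) and 18 (54.5%) of them, and Piezo1 knockout libraries 1 and 2 at 14 (42.4%) and 11 (33.3%). Over 27025 genes the shares were 24.6%, 32.7%, 25.8% and 25.7%. The lists held 15978, 26652, 15980 and 13610 peaks, their read depth is unknown, and no test was made with 2 libraries a group.

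A peak was listed in all 4 libraries for 10 of the 33 (30.3%, against 20.1% of the 27025 genes), and in none for 12 (36.4%, against 65.9%). The 10 were Stat2, Irf1, Ifit2, Samhd1, Ifi35, Dtx3l, Rnf213, B2m, Tap1 and Psmb9, where the last pair share a peak. That shared peak had fold enrichments of 5.65 and 6.19 in the GFP and 5.98 and 6.43 in the knockout libraries, by the authors' own values, although both genes gave almost no counts. Irf1 had 8.84 and 9.54 in the GFP and 7.22 and 5.78 in the knockout libraries. At the other end, Isg15, Ddx58, Ifih1, Oas1a, Oasl2, Trim25, Ifit3, Rsad2, Ifi44, Gbp7, Igtp and Psmb8 had no listed peak in any library. Isg15, Ddx58 and Ifit3 nonetheless had between 1151 and 13376 counts in each RNA-seq library.

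Gbp2, Parp12 and Xaf1 had a listed peak in both GFP libraries and in neither knockout library, an arrangement found in 3 of the 33 (9.09%) and in 444 of the 27025 genes (1.64%). Parp12 stood at 4.37 and 4.65 there, and Gbp2 at 4.27 and 5.21, in each case under the values of Stat2 in the same lists (7.10 and 7.35). The reverse arrangement was found in 0 of the 33 and in 56 of the 27025 genes (0.207%), and with lists of unequal length these shares were not tested. Gbp3 was listed in GFP library 2 alone, the library with the longest list, and Irgm1 in 1 library of each group.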

How the data were processed

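RNA-seq of 6 libraries and ATAC-seq of 4 libraries of C3H10 T1/2 cells were used. For RNA-seq, the authors deposited whole-number read counts by gene symbol, which hold no row outside genes. STAR, HTSeq, DESeq2 and Trim Galore 0.6.5 were used with the mm10 build, per the submitters' processing notes. The sources used here do not give the gene annotation, the strand setting or the rule for reads shared between genes. Per the labels' protocols, a kit for whole transcripts of single cells amplified the cDNA, and no molecular identifiers are mentioned, so several reads may stem from the same molecule. The ATAC-seq peak lists, deposited separately for each library, were made with Bowtie2 2.4.2 and MACS2 per the submitters' processing notes. In these deposited lists the fold enrichment is a ratio within its own library, and the −log10 q served only for a stricter peak threshold.

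Counts were scaled by TMM, filtered with filterByExpr and tested two-sided with edgeR 4.0.16 (glmQLFTest, R 4.3.3) over all 15335 genes that passed, with Benjamini-Hochberg adjustment and calls at 0.05. Standard errors (SE) were taken as the absolute log2 fold change over the square root of F. The script was tested on simulated data. DESeq2 1.42.0, limma 3.58.1 (voom), other scalings, no filter, a replicate block and leaving out each library were the alternatives. Replicates differed by a chi-square of at least 9.75 per degree of freedom. Gene starts, locations and promoters came from RefSeq tables of GRCm38.p6, which is mm10. A peak counted when at least 1 base of it lay within 1000 bases of a start. Values per library were given for called genes, for the 2 genes of each role with the highest mean CPM and for genes whose strain libraries all lay above the static ones, and those of Isg15, Tap1, Psmb8, Psmb9, Igtp and Samhd1 were added after they were seen. The 41 genes and all other gene lists were chosen with earlier results of these data known, so lists were described and not tested.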

Additional observations from a re-analysis of the deposited data

How the results depend on the processing

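The median log2 fold change of the tested genes stayed between 0.48 and 0.89 under every alternative run, and 0 genes were called lower under each. The number called higher, 8, moved more. It was 15 with DESeq2, 11 with limma-voom, 11 with library size alone, 8 with RLE size factors and 30 without the filter on low counts, and 0 to 29 when single libraries were left out. Over all tested genes the share called higher was 8.61% with DESeq2, 6.09% with limma-voom, 7.62% with library size alone, 5.84% with RLE size factors, 5.64% without the filter and 2.36% to 6.89% with single libraries left out. With the replicate block 27 genes were called, against 10.2% of all genes. Deviations of same-numbered libraries correlated at 0.0278, 0.208 and 0.0943, and strain libraries 2 and 3 correlated best with the static library of their own number but strain library 1 with static library 3 (0.0905). Not every pair passed 0.1 and the labels state no pairing, so the libraries were not treated as pairs. All 8 genes remained called under the other fits on 6 libraries except Stat2 with DESeq2, all 8 also remained without static library 2 or strain library 3, and 0, 2, 1 and 0 of them without static library 1, static library 3, strain library 1 and strain library 2. The cause of these moves was not tested. With single libraries left out, log2 fold changes ran from -0.26 to 0.72 for Mx1, from -0.29 to 0.70 for Igtp and from -0.10 to 0.71 for Tap2. The counts of genes with an ATAC-seq peak changed by less than 1.5 times with a window of 500 bases, a −log10 q of at least 5 or the summit inside the window. Depth limits Tap1, Tap2, Psmb8, Psmb9 and Igtp, each with at most 79 counts in any library.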
